A study of Arabidopsis thaliana with 4 samples.

Results

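Transcripts of 4 Arabidopsis thaliana genes, 3 of them with a given role at the cell wall or plant surface, were followed while western flower thrips fed on the plants. Those 3 were AT2G45180, which encodes a lipid-transfer-type protein, AT1G29660, which encodes a GDSL lipase, and AT3G49220, which encodes a pectin methylesterase. For the other gene, AT3G16670, the gene names used here give an identifier and no role. The family lists used further below place it with Ole e 1-type, extensin and proline-rich proteins. All 4 were picked by gene name from 415 named clones among the 1182 cDNA clones of a stress-gene array, because their mean ratio over the feeding times was among the lowest of the named genes. Each gene has 1 clone, printed in 2 spots on every array. All 4 clones passed the filter on dim clones. Since the ratio of fed to untreated plants chose them, every such ratio below is a description and carries no test.

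Fed plants were Columbia wild-type plants 21 days old, grown in soil, each caged with 25 adult female Frankliniella occidentalis, starved for 3 h, for 2, 5, 10 or 24 h. Untreated plants of the same ecotype and age, grown alongside, were set against them, and all groups carried the same wild-type genotype. Shoots without roots were sampled, and each RNA pool came, per the labels, from 30 to 70 plants per sample and 3 to 4 pooled experiments. On each array cDNA of fed plants carried Cy5 and cDNA of untreated plants Cy3, with 1 array per feeding time and no dye swap, so a dye effect of a clone and feeding cannot be told apart. The labels speak of 2 to 3 arrays per sample, but the data used here hold 1 scan for each time. The labels describe an acrylic chamber for the fed plants only, so insects and caging cannot be told apart. The pooled RNA leaves no measure of the spread between plants, and the 2 spots of a clone are technical copies. The SDs between spots below are therefore technical, and the spread between samples at a time was not measured.

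The aerial plant surface is closed by the cuticle, a layer of cutin polyester and waxes made by epidermal cells. Lipid-transfer-type proteins are small secreted proteins whose cysteine-bonded fold holds a lipid, and they are linked to carrying or binding surface lipids. GDSL lipases are a large family of esterases, some of which build or trim cutin and other lipids. Pectin methylesterases remove methyl groups from the pectin of the wall, which changes how stiff the wall is and how open it is to pectin-degrading enzymes. Sap- and cell-feeding insects such as thrips pierce both layers.

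All 4 genes gave lower signal in fed than in untreated plants at all 4 times after loess normalization. Among the alternatives run, the exceptions were AT3G16670 at 24 h scaled on alpha tubulin (0.15 log2) and AT2G45180 at 5 h in the authors' deposited table (0.048 after conversion to log2), both just above 0. On these 2 scales 0 is set by control spots, lambda DNA in the deposited table, and not by the middle of the clones. Against the median of its 5 h column the deposited AT2G45180 value was -1.16 in natural log units. In single spots, all 32 log2 ratios lay below 0, between -4.73 and -0.97, and 31 of the 32 were at least 2-fold lower. A log2 ratio of -1 is a 2-fold lower level in fed plants, and 0 is the middle of the clones on the array. The median of the 4 genes was -1.41, -1.99, -2.88 and -2.04 at 2, 5, 10 and 24 h, while the median over all tested clones was -0.11, -0.04, -0.07 and -0.02. The means over the 4 arrays that led to the choice were -2.05 for AT2G45180, -2.61 for AT1G29660, -1.97 for AT3G49220 and -1.88 for AT3G16670. The SDs of these means' 4 values were 0.87, 1.40, 0.61 and 0.32 in the same order, so AT3G16670 varied least between times and AT1G29660 most. The mean of AT1G29660 includes a 10 h ratio with no fed signal, and without that array it was -1.93. Among 806 tested clones these means ranked 25th, 10th, 27th and 33rd from the lowest.

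**Figure D1:**
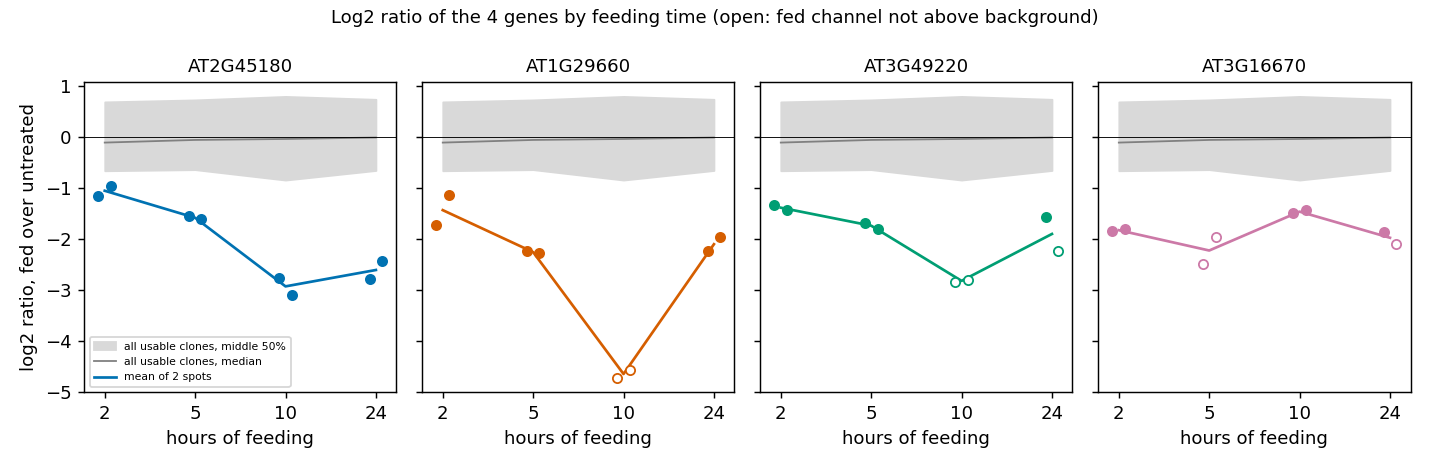
Log2 ratio of fed over untreated plants (vertical axis) against hours of feeding (horizontal axis, evenly spaced) for each gene. Points are single spots, open where the fed channel was not above background, coloured lines are means of 2 spots, the grey band is the middle 50% of all usable clones and the grey line their median. All 32 spots lie below 0, AT2G45180, AT1G29660 and AT3G49220 are lowest at 10 h, and the 5 h value of AT3G16670 is open in both spots.

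At each time all 4 genes were counted as at least 2-fold lower, meaning a log2 ratio of -1 or less with every spot below 0 and the untreated channel above background. AT2G45180 at 2 h, at -1.06, lay next to this limit and missed it with median centring (-0.97), mean pixels (-0.95), other flags kept (-0.97) and print-tip loess (-0.69). With print-tip loess AT3G49220 at 2 h missed it as well (-0.80). Of all usable clones 12.5% were counted at 2 h, 15.8% at 5 h, 22.3% at 10 h and 16% at 24 h. Of 607 clones with a value at every time, 6.75% were counted at all 4 times. Low means over the same arrays chose the 4 genes, so nothing is read from their counts against these shares. Across the time course 24.4% of 806 tested clones were lower in fed plants at a limma adjusted p under 0.05. The zero point of the arrays bears on these counts: scaled on the lambda DNA spots, the median tested clone itself lay between 0.66 and 1.62 log2, and scaled on alpha tubulin between 0.84 and 1.71. On those scales the means of the genes stayed below 0, from -0.50 for AT3G16670 to -1.44 for AT1G29660 on lambda DNA and from -0.45 to -1.39 on alpha tubulin. The median of the 4 genes was -0.67, -0.24, -1.28 and -0.83 at 2, 5, 10 and 24 h on lambda DNA and -0.48, -0.55, -1.53 and -0.25 on alpha tubulin. The number of the 4 genes at least 2-fold lower was 0 at both 2 h and 5 h on either control. It was 2 at both 10 h and 24 h on lambda DNA, and 3 at 10 h and 0 at 24 h on alpha tubulin. The share of all clones on these scales was not worked out.

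**Figure D2:**
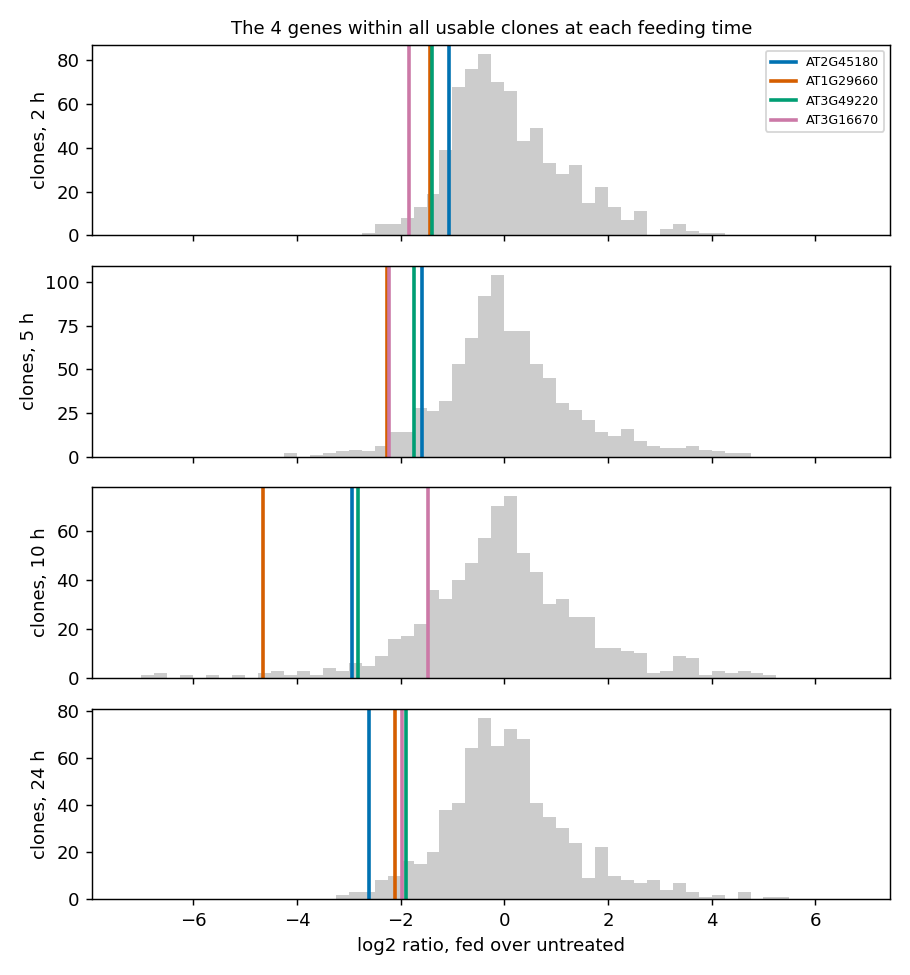
Number of usable clones (vertical axis) by log2 ratio of fed over untreated plants (horizontal axis, bins of 0.25), 1 panel per feeding time, with the 4 genes as coloured lines. The 4 lines lie in the lower tail at each time, and AT1G29660 stands apart from the other 3 at 10 h at -4.65.

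AT2G45180, the lipid-transfer-type gene, was the only 1 of the 4 whose fed channel was above background in all 8 spots. Foreground intensity in fed plants was 1435 and 1530 at 2 h, 2347 and 2243 at 5 h, 707 and 624 at 10 h, and 494 and 760 at 24 h. In untreated plants it was 2890 and 2775, 4066 and 4053, 2510 and 2634, and 2208 and 2928 at the same times. In each of the 8 spots the fed channel was the dimmer one, and the gap was widest on the later 2 arrays. The log2 ratio was -1.06 ± 0.13 at 2 h, -1.59 ± 0.05 at 5 h, -2.93 ± 0.24 at 10 h and -2.61 ± 0.25 at 24 h (SD between 2 spots). These are 2.08-fold, 3.01-fold, 7.63-fold and 6.11-fold lower levels in fed plants. The step between 5 h and 10 h was larger than the technical spread between spots, and the step between 10 h and 24 h was close to it. Among all usable clones the gene ranked 84th of 718, 68th of 857, 25th of 739 and 7th of 718 from the lowest.

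AT1G29660, the GDSL lipase gene, had the lowest value of the 4. Foreground intensity in fed plants was 578 and 824 at 2 h, 2843 and 2971 at 5 h, 326 and 379 at 10 h, and 1699 and 2339 at 24 h. In untreated plants it was 1511 and 1473, 7149 and 7582, 2264 and 2057, and 6261 and 6955. At 10 h the fed foreground was below its own local background of 345 and 393, so the fed channel gave no signal to measure there. The log2 ratio was -1.44 ± 0.41 at 2 h, -2.26 ± 0.03 at 5 h, -4.65 ± 0.12 at 10 h and -2.11 ± 0.20 at 24 h. Outside 10 h these are 2.71-fold, 4.79-fold and 4.30-fold lower levels in fed plants. For 10 h the fold is a bound set by the array's floor, the lowest fed level among clones above background on that array. Untreated level over this floor gave 15.5-fold lower, a log2 difference of 3.96. Fed background SDs at the gene's own spots were 142.89 and 164.51, so a fed signal above the floor could have gone undetected. The true fold may thus be smaller than this bound. The bound is taken per channel after loess and Aquantile scaling, and without a dye swap it is open to dye bias. In the authors' deposited table the 10 h value of AT1G29660 is -4.61 in natural log units, the lowest value that table uses, shared by 8 clones.

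AT3G49220, the pectin methylesterase gene, was dimmer. Foreground intensity in fed plants was 370 and 359 at 2 h, 633 and 609 at 5 h, 317 and 312 at 10 h, and 402 and 334 at 24 h. In untreated plants it was 763 and 752, 1073 and 1120, 576 and 609, and 709 and 771. The fed spots were above background in 5 of 8 cases, and neither was at 10 h. The log2 ratio was -1.39 ± 0.07 at 2 h, -1.74 ± 0.08 at 5 h, -2.82 ± 0.03 at 10 h and -1.90 ± 0.47 at 24 h. The fed level was 2.62-fold lower at 2 h, 3.35-fold lower at 5 h and 3.74-fold lower at 24 h, the last with 1 of 2 fed spots above background. With plain background subtraction the log2 ratios at 2, 5 and 24 h were -1.67, -1.91 and -2.43, and with other flags kept -1.26, -1.73 and -1.68. For 10 h the bound against the same array's floor is 5.24-fold lower, and it too is not the detection limit of the gene's own spots. The 10 h bound, 2.39 on the log2 scale, differs from the 24 h value by about the spread between the 24 h spots.

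AT3G16670 was dim in fed plants at 2, 5 and 24 h. Foreground intensity in fed plants was 316 and 314 at 2 h, 315 and 323 at 5 h, 619 and 622 at 10 h, and 354 and 336 at 24 h. In untreated plants it was 802 and 582, 445 and 464, 858 and 862, and 606 and 566. Both channels were brightest at 10 h, the time at which the fed channels of the other 3 genes were lowest after normalization. The log2 ratio was -1.83 ± 0.03 at 2 h, -2.23 ± 0.37 at 5 h, -1.47 ± 0.04 at 10 h and -1.98 ± 0.17 at 24 h. The levels in fed plants were 3.56-fold, 2.77-fold and 3.94-fold lower at 2, 10 and 24 h. These folds depend on the processing. With plain background subtraction the log2 ratios at these 3 times were -2.39, -1.90 and -2.71, and with other flags kept -1.44, -1.46 and -1.43. Neither fed spot was above background at 5 h, and the bound there, against the floor of that array, is 3.13-fold lower. At 24 h 1 of 2 fed spots was above background, and the gene's fed level there was the lowest of any clone counted as above it. At 10 h it ranked 102nd of 739 usable clones from the lowest, against 18th of 718 at 2 h. Whether its course differs from those of the other 3 was not tested.

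Set side by side, the courses of AT2G45180 and AT3G49220 were the closest pair, with a root mean square difference of 0.40 log2 over the 4 times. Like the distances further below, this uses the measured ratios, of which AT1G29660 and AT3G49220 at 10 h and AT3G16670 at 5 h are only bounds. At 2 h the order from the lowest was AT3G16670, AT1G29660, AT3G49220, AT2G45180, and AT1G29660 did not differ from its neighbours beyond the spread of its own spots. At 5 h AT1G29660 and AT3G16670 did not differ beyond it either. At 10 h AT1G29660 was lowest, AT2G45180 and AT3G49220 lay together, and AT3G16670 was highest. At 24 h AT2G45180 was lowest, and the other 3 lay between -2.11 and -1.90, within the spread of the AT3G49220 spots. Of the 41 clones at least 2-fold lower at every time, 27 had their lowest ratio at 10 h, and 3 of the 4 genes did.

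The next comparison asked whether the genes moved further with longer feeding. Their choice used the mean over times and not this slope, but both rest on the same 4 ratios. Earlier results of these data were also known at the choice, so the p-values cannot be taken as independent of it. The slope of the log2 ratio on log2 of hours was -0.50 ± 0.18 per doubling of time for AT2G45180 (moderated SE, limma adjusted p = 0.475), with an unadjusted limma p of 0.027. It was -0.35 ± 0.36 for AT1G29660, -0.21 ± 0.19 for AT3G49220 and 0.02 ± 0.16 for AT3G16670 (limma adjusted p = 0.856, 0.823 and 0.988). None of the 4 passed, and 0 of 716 clones passed with limma, a share of 0%, while 67 had an unadjusted p under 0.05. The 24 h array decides this count. Without it AT1G29660 passed at -1.34 per doubling (limma adjusted p = 0.00843) and AT2G45180 at -0.78 (limma adjusted p = 0.0499), among 56 clones that did. In that shorter fit the AT1G29660 slope rests on the 10 h value with no fed signal, and the 10 h array is the only one from its slide. That 10 h value also lowers the mean that chose the gene. In the full fit the 2 h and 5 h arrays share a slide and the 10 h and 24 h arrays another. Early against late feeding and slide therefore cannot be told apart. With the slide as a block the AT2G45180 ratio slope was -0.088 per doubling and did not pass.

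The 2 dyes were then followed apart, to see in which channel each gene moved. After loess and Aquantile scaling the untreated level of AT2G45180 stayed within 0.42 log2 over the 4 arrays, between 11.49 and 11.91. Its fed level was 10.43, 10.32, 8.88 and 8.95 at 2, 5, 10 and 24 h, a span of 1.55. For this gene the lower ratios of the later arrays therefore went with a lower fed channel. AT3G49220 and AT3G16670 spanned 1.37 and 1.44 log2 in the fed channel and 0.64 and 0.67 in the untreated channel. Fed levels of AT3G49220 at 10 h and of AT3G16670 at 5 h were not above background and enter these spans as measured.

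AT1G29660 moved in both channels. Its fed level was 9.14, 10.51, 6.72 and 10.85 and its untreated level 10.58, 12.77, 11.37 and 12.95, so the untreated level alone spanned 5.17-fold. In untreated plants it was high at 5 and 24 h and low at 2 and 10 h. The file headers place the 2 h and 5 h arrays on 1 slide and the 10 h and 24 h arrays on another, with the earlier time as the upper and the later time as the lower array of each slide. The untreated level was thus 2.19 log2 higher on the lower than on the upper array of the first slide and 1.58 higher on that of the second. By the smaller of these differences AT1G29660 ranked 3rd of 607 clones, of which 25 (4.12%) were at least 2-fold higher on both lower arrays. This tally was made after the values were seen. Time, array position and the amount of DNA in a spot cannot be told apart in it, whereas the ratio compares both dyes within a spot. For the other 3 genes the untreated level differed between the lower and upper array by 0.64 log2 at most.

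**Figure D3:**
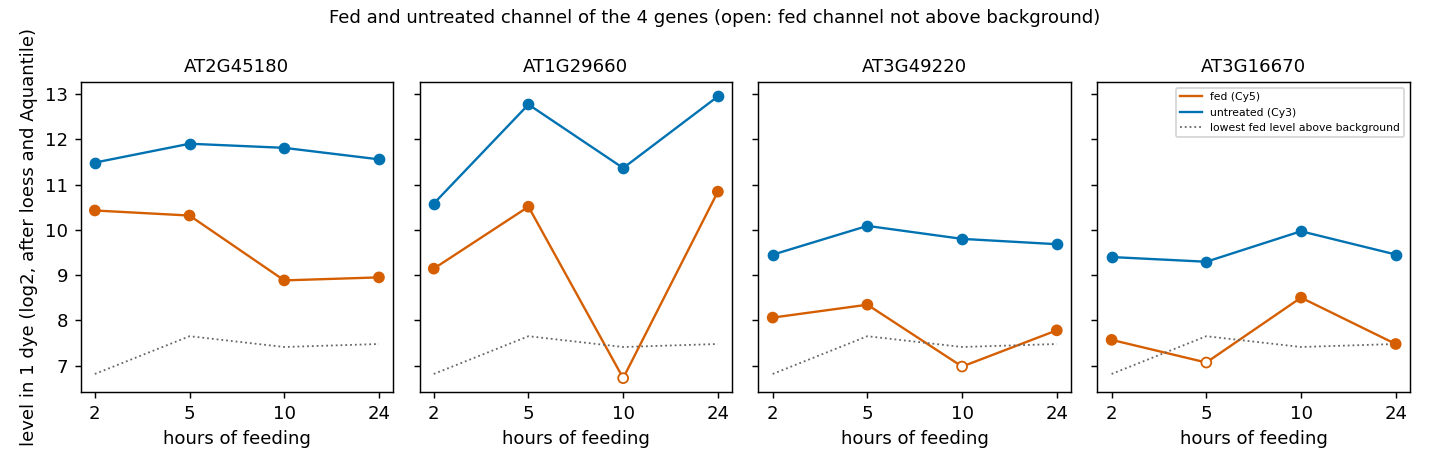
Level of each gene in the fed (orange) and untreated (blue) channel, in log2 after loess and Aquantile scaling (vertical axis), against hours of feeding (horizontal axis, evenly spaced). Open points mark fed levels not above background and the dotted line the lowest fed level among clones above it. The untreated level of AT2G45180 stays within 0.42 log2, while that of AT1G29660 is high at 5 and 24 h.

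**Figure D4:**
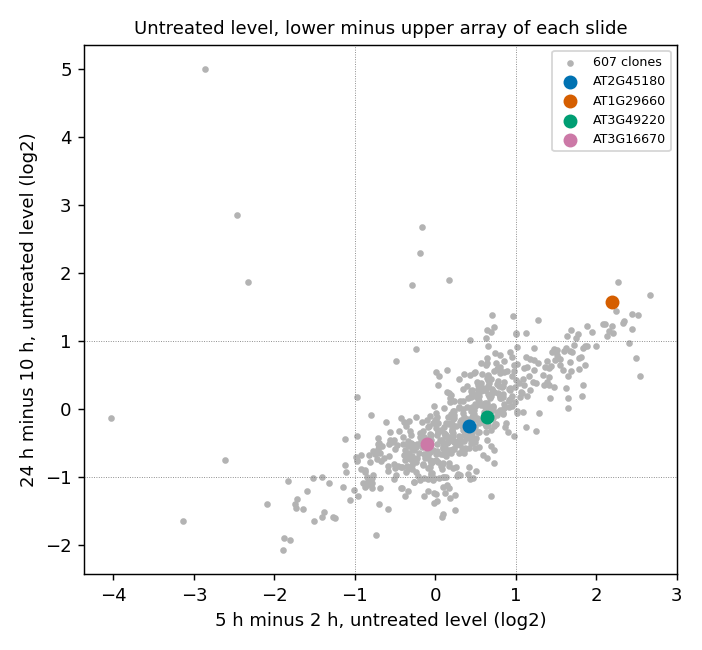
Difference in untreated level (log2) between the lower and the upper array of the first slide (5 h minus 2 h, horizontal axis) and of the second slide (24 h minus 10 h, vertical axis) for 607 clones, with the 4 genes in colour. Dotted lines mark 2-fold differences. AT1G29660 lies beyond them on both axes at 2.19 and 1.58, and the other 3 genes lie within them.

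The slopes of the single channels were fitted over all clones in the same way. In the fed channel the slope was -0.49 ± 0.26 per doubling of time for AT2G45180, 0.16 ± 0.44 for AT1G29660, -0.17 ± 0.27 for AT3G49220 and 0.08 ± 0.27 for AT3G16670. None passed (limma adjusted p = 0.848 for AT2G45180 and 0.946 to 0.949 for the others), nor did any of the 716 clones, a share of 0%, with 40 at an unadjusted limma p under 0.05. In the untreated channel 4 of 716 clones passed with limma, 0.559%, and none of the genes did. The slope of AT1G29660 there was 0.51 ± 0.19 (limma adjusted p = 0.504), and those of the other 3 lay between 0.01 and 0.06. Without the 5 h array the untreated slope of AT1G29660 passed (0.62, limma adjusted p = 0.0341), among 12 clones that did. With the slide as a block the AT1G29660 slope passed in both channels. In the fed channel it was 2.10 (limma adjusted p = 0.0158), among 29 clones that passed. In the untreated channel it was 1.47 (limma adjusted p = 0.000696), among 64. Within a slide the later time is always the lower array, so that fit cannot tell time from position. The fed slope of AT2G45180 in the same fit was -0.019.

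The array holds few other named genes of the same families. Of 40 listed GDSL lipase genes 3 are named on it. AT1G54010, named GDSL-like lipase 23, went the other way from AT1G29660, with log2 ratios of 1.82, 3.09, 4.31 and 3.48 over the 4 times. Its mean ratio of fed over untreated was 3.17 ± 0.38 (limma adjusted p = 0.000987). Its slope with feeding time, 0.52 per doubling, did not pass (limma adjusted p = 0.527). AT2G23540 gave no usable value. Among 42 genes of xyloglucan enzymes and expansins, XTH19, a xyloglucan endotransglucosylase of the wall, had a log2 ratio of 0.62 at 2 h and 0.60 at 5 h, over an untreated channel that was below the detection limit, and no value later. The mean of XTH19 missed the threshold (0.61 ± 0.29, limma adjusted p = 0.143), and the expansin-like genes EXLA1 and EXLA2 gave no usable value. AT5G61590, found by the word wax in its names (DEWAX, decrease in wax biosynthesis) and not by family, stood at -0.22, -0.37, -1.07 and 0.46, with a mean that did not pass (-0.30 ± 0.27, limma adjusted p = 0.388). Of all tested clones 22.6% passed higher and 24.4% lower. The lists of lipid-transfer and proline-rich proteins, of pectin-modifying enzymes, and of Ole e 1-type and extensin proteins held no named clone beyond the 4 genes, and those of cutin and wax genes and of arabinogalactan proteins held none.

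The named genes with the closest course were found by root mean square difference of the log2 ratio over the 4 times, among 179 named genes with a value at every time. For AT2G45180 they were the acid phosphatase gene AT5G44020 (0.31 log2), AT3G49220 (0.40) and AT1G73110 (0.47). AT5G44020 stood at -0.67, -1.22, -2.84 and -2.31, the same order of times as AT2G45180. For AT1G29660 they were the glutaredoxin-family gene AT1G64500 (0.40), DRT100, a leucine-rich repeat protein (0.60), and the aspartyl protease gene AT3G54400 (0.93). AT1G64500 stood at -1.28, -2.81, -5.14 and -1.87, with its lowest value at 10 h as well. For AT3G49220 they were FUG1, a chloroplast translation initiation factor (0.33), AT2G45180 (0.40) and AT3G20820, a leucine-rich repeat gene (0.41). For AT3G16670 they were AT2G41090 (0.46), the subtilase gene AT2G05920 (0.50) and FUG1 (0.65). AT2G41090 stood at -1.47, -2.23, -1.14 and -1.21. With median centring in place of loess 5 of these 12 places were kept, so likeness at this distance depends on the normalization. Likeness over 4 arrays is a description only.

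Depth and tissue bear on the values of all 4 genes, and depth bears more on those that are dim in the fed channel. Usable clones numbered 718 to 857 per array, and the spots of the 4 genes had 0% saturated pixels and scanner flags of a good spot throughout. Local background at their spots was 151 to 393 in the fed channel and 98 to 141 in the untreated channel, so a low fed level is measured less well than a low untreated one. The median SD between the 2 spots was 0.12 log2 for the 4 genes and 0.11 for all clones. Of 25 leaf and photosynthesis markers, 12 flower, pollen and seed markers and 9 trichome and guard cell markers, none is a named clone, so the labelled tissue could not be checked with them. Of 12 root markers 8 are named and 3 gave values. The summed level of PYK10 and BGLU22, the 2 measured at all times, was 4051, 4689, 18722 and 22286 in fed plants and 4966, 3521, 6603 and 3442 in untreated plants. The sum was highest in fed plants at 10 and 24 h, the times at which AT2G45180 was lowest. BGLU21, the other root marker with values, had log2 ratios of 0.60, 1.08 and 0.57 at 5, 10 and 24 h over an untreated channel that was not above background. The part of these genes in the result was not tested. In whole shoots fewer cells of a type, such as epidermal cells, and less RNA per cell cannot be told apart.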

How the data were processed

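Per the labels' protocols, polyA RNA was labelled and hybridised to spotted cDNA arrays, read on a ScanArray Lite scanner with its Express software. The deposited scanner files hold, for every spot and dye, the linear foreground and background intensity as medians over pixels, and the percent of saturated pixels. Per the file headers, detector gain was 69 for Cy3 and 58 to 65 for Cy5. The image name of the 5 h array carries another Cy3 gain than its header, and which held is unknown. The authors' deposited value table holds natural log values; its scale, centring and direction are not stated. Set against background-subtracted Cy5 over Cy3 it had slopes of 0.962 to 0.988 and r of at least 0.992 across clones, and its lambda DNA row is at 0, so it was taken as ln(Cy5/Cy3). Its column medians were 0.301, 1.20, 0.606 and 0.861.

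Intensities were background-corrected with normexp (offset 50), normalized by loess within arrays and averaged over the spots of a clone with scanner flag 3 (R 4.3.3, limma 3.58.1). A channel was above background when the foreground exceeded the background by 2 background SD in at least 50% of spots; clones needed this in 1 channel on at least 2 arrays. Trends were limma slopes with Benjamini-Hochberg adjustment over clones with at least 3 arrays, at 0.05. The fit was run on simulated data with independent noise, no slide effect and planted slopes larger than the main slopes of the 4 genes. That run cannot show how often slopes of their size would be found. The trend tests and the limma tests of a mean over times measure the spread between arrays of different times, at most 4. They do not measure the spread between samples at a time. Probe numbers of the value table were matched to the spot index, and 414 of the 415 named clones matched the TAIR10.1 names by gene identifier. Coordinates and sequences are not used here. Close relatives may share signal with long cDNA probes. Named genes were the 4 genes, the measured genes of the family lists, and the 3 nearest courses of each gene. The members and lists were chosen with earlier results of these data known. Alternatives covered background, normalization, zero point, pixels, flags, filter, slide, and each array left out; array position as a block and the means of single slides were chosen after seeing the data.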

Additional observations from a re-analysis of the deposited data

How the results depend on the processing

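Each log2 ratio already pairs fed and untreated cDNA on 1 array. The times could not be paired with each other, and the slide was fitted as a block for the slopes only. The median of the 4 genes' means, -2.01, lay between -2.57 and -1.71 under all alternatives other than the control scalings and the deposited table, including each slide alone; leaving out each array in turn gave -2.27 to -1.84. It was -0.76 on lambda DNA, -0.70 on alpha tubulin and -1.07 in the deposited table, where AT1G29660 had no 10 h value above the lowest one used. The number of the 4 genes counted as at least 2-fold lower became 0, 0, 2 and 2 at 2, 5, 10 and 24 h on lambda DNA. At the same times it became 0, 0, 3 and 0 on alpha tubulin and 2, 0, 3 and 1 in the deposited table. The share of all clones counted on these scales was not worked out, so nothing is read from these counts. Print-tip loess gave 2 at 2 h, and median centring, mean pixels and keeping other flags gave 3 at 2 h, each without AT2G45180. Plain subtraction gave 3 at 10 h, where AT1G29660 has no value. A filter that asks for both dyes above background on every array left AT2G45180 alone, hence 1 at each time. Without a change of sign, single values moved by at least the SD between the 2 spots in 36 of 48 alternatives for AT3G16670 and 31 of 48 for AT3G49220. For AT1G29660 this was 22 of 46 and for AT2G45180 17 of 48. Single values changed sign for AT3G16670 at 24 h on alpha tubulin (0.15) and AT2G45180 at 5 h in the deposited table (0.048). The control scalings and the deposited table set 0 by control spots, so their counts and signs have another zero than the loess values.

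Slopes that had not passed changed sign as follows. The ratio slope of AT3G16670 was -0.0073 with median centring, -0.11 with print-tip loess, -0.016 with mean pixels, -0.35 with the slide as a block, and -0.025 to 0.13 when each array was left out in turn. That of AT3G49220 was 0.075 on alpha tubulin and 0.21 with the slide block, and that of AT1G29660 was -1.34 (without 24 h) to 0.15 (without 2 h) and 0.63 with the slide block. With arrays left out in turn, fed slopes were -0.0032 to 0.36 for AT3G16670 and -0.93 to 0.44 for AT1G29660. They were -0.59 for AT3G16670 and 0.42 for AT3G49220 with the slide block, and -0.46 for AT1G29660 with array position as a block. With arrays left out in turn, untreated slopes were -0.15 to 0.15 for AT2G45180 and -0.18 to 0.17 for AT3G49220. They were -0.00026 for AT2G45180 with channels centred on their medians, -0.0023 and -0.0098 for these 2 genes with the position block, and -0.24 for AT3G16670 with the slide block. The number of the 4 genes past the threshold was 0 to 2 for the ratio slope and 0 to 1 for the untreated slope when each array was left out, and 1 in either channel with the slide block. Over all clones it was 0 to 56 for the ratio slope and 2 to 12 for the untreated slope when each array was left out. With the slide block it was 29 in the fed and 64 in the untreated channel. The cause was not tested. Fed levels near background limit AT3G49220 and AT3G16670 most, with 5 of 8 fed spots above it each.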
